A study of Mus musculus with 2 samples.

Results

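A set of 40 genes of the cell cycle was followed through the cells of the mouse tumours out of the 34097 that the count tables list. They are chosen by symbol, with no measured value in the rule, but with earlier results of these data known. By role, 25 act in G2 and mitosis (the mitotic genes), 8 in DNA replication, and 7 regulate the passage from G1 into S phase. Single-cell RNA from 2 lung tumour xenografts of LLC cells, a mouse Lewis lung carcinoma line, had been captured on the 10x Genomics platform. The control library came from a tumour whose treatment is given as control, and the knockdown library from a tumour with shRNA against Gfpt2. Both tumours share the LLC line. The construct of the control, the strain, sex and age of the host, and the number of animals per library are not given in the sources used here. Each group is 1 library, so nothing here was tested or checked against a replicate. Intervals in parentheses are 95% intervals that cover counting error only, and a difference between the libraries is a difference between these 2 libraries.

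A dividing cell turns its cell cycle genes on in waves. Cyclin D with its kinase Cdk4 and cyclin E release the E2F transcription factors in late G1, E2F factors switch on the replication genes, and the mitotic genes follow in G2 under B-Myb, FoxM1 and the DREAM and MuvB complexes. Because the mitotic transcripts are nearly absent from resting cells, they are the usual markers of cycling cells in tumours, where cancer cells, T cells and resident macrophages can all divide.

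The mitotic and the replication genes differ in the letters before their start sites, and those letters are shown for 4 genes because the mitotic and replication genes also differed in the data below. RefSeq promoter windows (build GRCm38.p6, 250 bases before to 50 bases after the start of a gene, 300 bases in all) were found for 33 of the 40 genes. Ccna2, Aurkb, Tpx2, Pbk, Pimreg, Ccne2 and Ccnd1 had no window in the table. Cdca3 (chr6:124829926-124830225, plus strand) and Ube2c (chr2:164769679-164769978, plus strand) stand for the mitotic genes, and Mcm5 (chr8:75109259-75109558, plus strand) and Pcna (chr2:132253131-132253430, minus strand) for the replication genes. Each is written 5′ to 3′ on the strand of its gene, and capitals mark every match, on either strand, to 3 motifs: the cell cycle homology region or CHR (TTTGAA or TTCGAA), the CCAAT box (CCAAT), and an E2F site (TTTCCCGC, TTTCGCGC, TTTGCCGC or TTTGGCGC).
Cdca3: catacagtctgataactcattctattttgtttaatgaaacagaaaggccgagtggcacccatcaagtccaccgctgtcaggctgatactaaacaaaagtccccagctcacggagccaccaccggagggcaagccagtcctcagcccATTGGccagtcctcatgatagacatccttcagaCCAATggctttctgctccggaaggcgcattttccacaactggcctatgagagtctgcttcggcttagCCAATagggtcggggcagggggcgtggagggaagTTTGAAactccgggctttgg
Ube2c: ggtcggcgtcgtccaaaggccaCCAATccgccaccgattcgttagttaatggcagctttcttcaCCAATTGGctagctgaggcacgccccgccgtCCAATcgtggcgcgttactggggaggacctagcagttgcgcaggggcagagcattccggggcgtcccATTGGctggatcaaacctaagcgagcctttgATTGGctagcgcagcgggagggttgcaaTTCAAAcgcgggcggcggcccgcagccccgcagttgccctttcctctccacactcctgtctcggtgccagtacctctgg
Mcm5: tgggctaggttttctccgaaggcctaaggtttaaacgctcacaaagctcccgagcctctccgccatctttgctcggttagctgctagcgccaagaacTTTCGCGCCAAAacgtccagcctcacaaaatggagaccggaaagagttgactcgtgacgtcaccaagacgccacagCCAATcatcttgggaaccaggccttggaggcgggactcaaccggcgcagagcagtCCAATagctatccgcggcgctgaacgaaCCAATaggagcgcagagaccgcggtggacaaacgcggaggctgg
Pcna: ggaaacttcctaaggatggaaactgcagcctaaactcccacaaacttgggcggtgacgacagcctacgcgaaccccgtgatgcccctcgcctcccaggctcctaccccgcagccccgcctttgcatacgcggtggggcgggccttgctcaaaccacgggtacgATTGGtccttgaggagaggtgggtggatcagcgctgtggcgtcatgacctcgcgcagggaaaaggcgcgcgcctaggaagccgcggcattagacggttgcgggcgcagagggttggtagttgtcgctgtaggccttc
The Cdca3 window held 1 CHR match and 3 CCAAT boxes, and the Ube2c window 1 CHR match and 6 CCAAT boxes, of which 2 overlap. The Mcm5 window held 3 CCAAT boxes and 2 overlapping E2F matches, one on each strand, and no CHR match. The Pcna window held 1 CCAAT box alone. Over all members with a window, a CHR match was found in 16 of 20 mitotic genes (80%), in 1 of 8 replication genes (12.5%, Mcm2) and in 0 of 5 G1 regulators, against 19.4% of 27025 windows of all genes. The CCAAT box was found in 17 of 20 mitotic genes (85%), in 7 of 8 replication genes (87.5%) and in 0 of 5 G1 regulators, against 37.9% of all windows. An E2F match was found in 1 of 20 mitotic genes (5%, Cdk1), in 3 of 8 replication genes (37.5%, Mcm3, Mcm5 and Mcm6) and in 1 of 5 G1 regulators (20%, Cdkn2a), against 2.32% of all windows. Birc5, Nusap1 and Melk held none of the 3 motifs in these windows. A match describes letters and is not a measured binding site.

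The libraries held 11977 control and 12853 knockdown barcodes, of which 10662 and 11450 were kept, and 37 barcodes occurred in both. Gfpt2, the targeted gene, was at 1.76 CPM (1.54 to 1.99) in kept control cells and 0.574 CPM (0.445 to 0.727) in kept knockdown cells, in the direction of the labels. CPM is the summed UMIs of a gene per 1000000 summed UMIs of the same cells, where a UMI (unique molecular identifier) stands for 1 captured RNA molecule. Cells were put in 3 classes by rule. Tumour-like cells had 0 Ptprc UMIs, fewer than 5 Lyz2 UMIs per 10000 and at least 5000 UMIs in all. Macrophages had at least 10 UMIs of C1qa, C1qb and C1qc together per 10000, and T cells at least 2 UMIs of Cd3d, Cd3e and Cd3g, both with at most 2 UMIs of the tumour genes Hmga2, Tnfrsf12a and Igf2bp2.

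The classes held 4986 control and 5211 knockdown tumour-like cells, 3865 and 4163 macrophages, and 728 and 633 T cells, and their depth differed between the libraries. Median UMIs per cell were 18744 and 14667 in tumour-like cells, 5312 and 3740 in macrophages, and 2590 and 2526 in T cells. Of the 13 tumour markers listed for LLC cells, Hmga2, Cald1, Tpm2 and others were present in tumour-like cells, but the epithelial markers Krt8 (9 control and 8 knockdown UMIs), Krt18 (1 and 0) and Epcam (4 and 8) were at or near 0. The same cells held 8 of 8 fibroblast markers, summed to 2589 CPM in control against 2901 CPM in knockdown cells, so the class is called tumour-like by its rule only.

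The macrophage rule gathered different cells in the libraries. Cells with 10 to under 80 C1q UMIs per 10000 made up 615 of the control macrophages (15.9%) and 1111 of the knockdown macrophages (26.7%). A Ptprc UMI, the leukocyte antigen CD45, was found in 70.8% of control and 61.4% of knockdown macrophages. Xist, the RNA of the inactive X chromosome, was found in 80.6% and 67.3% of macrophages but in 4.33% and 4.43% of tumour-like cells. These shares depend on depth, which was lower in knockdown macrophages. The Ptprc level ran the other way in macrophages, at 311 and 359 CPM, and Xist was at 528 and 464 CPM. The 8 fibroblast markers, all above 0 in both, summed to 190 CPM in control macrophages and 600 CPM in knockdown macrophages. A narrower class of C1q-high macrophages, with at least 80 C1q UMIs per 10000, was added after the data were seen. The order of the classes is given for it alone, and the differences between the libraries for it and for the rule's class. It held 3250 control and 3052 knockdown cells, whose make-up and depth still differed between the libraries. Median UMIs were 5792 and 4300.5. An Xist UMI was found in 85.8% and 76.8% and a Ptprc UMI in 75.2% and 70.7%, shares that depend on depth. The levels were 523 and 500 CPM for Xist and 305 and 389 CPM for Ptprc, which was thus higher in the knockdown library. Fibroblast markers in these cells summed to 102 and 193 CPM (8 of 8 and 7 of 8 above 0). Endothelial markers, 6 of 6 above 0, summed to 20.1 and 40.5 CPM there, and monocyte markers, 5 of 5 above 0, to 109 and 80.3 CPM. Of the monocyte markers Chil3 had 502 and 11 UMIs, while Ly6c2 was at 16.8 and 9.24 CPM and Vcan at 12.6 and 20.6 CPM. The part of these cells in the results below was not tested. The T cells, in which all 9 T cell markers were present, shared 110 control and 122 knockdown cells with the macrophage class.

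**Figure D1:**
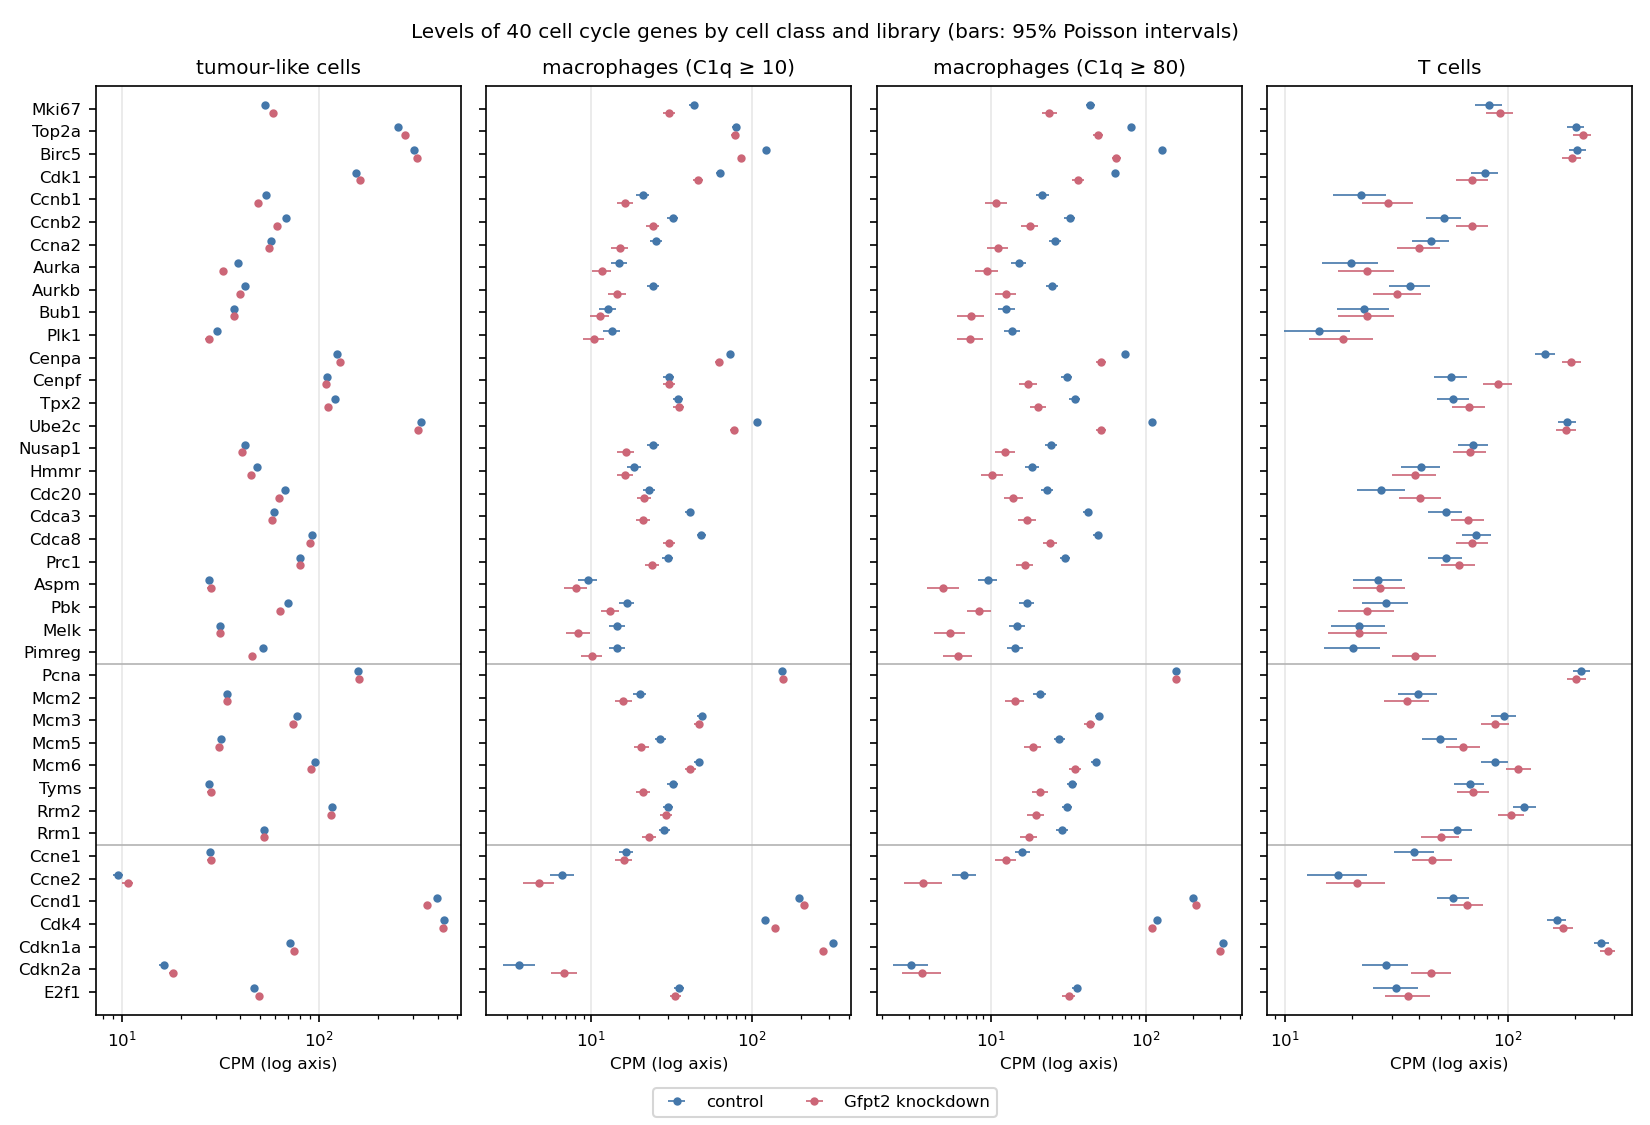
Level of each gene in CPM (log axis, a different range in each panel) in tumour-like cells, macrophages by rule, C1q-high macrophages and T cells, with control in blue, knockdown in red and bars for 95% Poisson intervals; grey lines separate mitotic genes, replication genes and G1 regulators. Control and knockdown points lie close together in tumour-like cells, while in C1q-high macrophages the red points of all 25 mitotic genes lie below the blue ones.

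Most mitotic genes were at their highest level in tumour-like cells and all 25 were at their lowest in C1q-high macrophages. Among tumour-like cells, C1q-high macrophages and T cells of the control library, 22 of 25 mitotic genes were highest in tumour-like cells and 3 in T cells (Mki67, Nusap1 and Cenpa), and in the knockdown library 20 and 5, with Ccnb2 and Cdca3 added. Their summed level was 2343 CPM in control tumour-like cells, 1630 CPM in control T cells and 949 CPM in control C1q-high macrophages. That tumour-like cells stood above T cells in this sum rests on the deepest cells. Control tumour-like cells were at 976 CPM with 5000 to under 10000 UMIs and 1299 CPM with 10000 to under 20000. With 20000 or more they were at 2952 CPM. In the knockdown library these bands were at 1251, 1619 and 3175 CPM. Knockdown T cells were at 1784.5 CPM and knockdown C1q-high macrophages at 510 CPM. Only the tumour-like rule sets a minimum of 5000 UMIs. The intervals of the highest and the middle class overlapped for 4 mitotic genes in the control library against 6 in the knockdown library. The lowest and the middle class overlapped for 7 and 0. Mki67, the antigen by which cycling cells are stained, was at 82.2 CPM (71.3 to 94.2) in control T cells, 53.4 CPM (51.99 to 54.8) in control tumour-like cells and 43.7 CPM (40.9 to 46.7) in control C1q-high macrophages.

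Replication genes had another order. Of these 8 genes, 7 were highest in T cells in the control library against 6 in the knockdown library, although the intervals of the highest and the middle class overlapped for 4 in each. Pcna, the sliding clamp of the replication fork, was at 213 CPM (195 to 232) in control T cells, 157 CPM (154.7 to 159.5) in tumour-like cells and 156 CPM in C1q-high macrophages, and the last 2 did not differ beyond their intervals. Among the G1 regulators, Cdk4 was at 429 CPM in control tumour-like cells, 166 CPM in T cells and 118 CPM in C1q-high macrophages. Cdkn1a, which encodes the cyclin kinase inhibitor p21, ran the other way, with 314 CPM in control C1q-high macrophages, 262 CPM in T cells and 71.0 CPM in tumour-like cells.

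RNA released from tumour cells adds UMIs to other cells, so the share of tumour-like RNA in each class was gauged from Cald1, Tpm2 and Col4a1, genes that the class rules did not use. Their summed level in macrophages was 6.50% of the tumour-like level in the control library against 19.1% in the knockdown library, and in C1q-high macrophages 4.95% and 7.10%. In T cells it was 13.6% and 14.8%. The mitotic genes stood at 40.5% and 22.0% of their tumour-like level in C1q-high macrophages and at 69.6% and 76.9% in T cells, above the gauge in both libraries. How much of each mitotic level came from RNA of other cells was not tested.

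Pooled over all tumour-like cells, the cell cycle genes differed little between the libraries. None of the 40, all of which had 100 UMIs or more in 1 library, was past 1.5-fold in either direction. Of 12371 genes with as many UMIs, 0.728% were lower in the knockdown library by 1.5-fold or more and 2.33% higher, so the count of 0 members lies near the background. The median log2 ratio of knockdown over control was -0.04 for the 25 mitotic genes and -0.01 for the 8 replication genes, against 0.04 for all genes. The summed mitotic level was 2343 CPM in control against 2319 CPM in knockdown cells. Within bands of UMIs per cell it was higher in the knockdown library, with 976 (948 to 1004) and 1251 CPM (1229 to 1274) at 5000 to under 10000 UMIs, 1299 and 1619 CPM at 10000 to under 20000, and 2952 and 3175 CPM at 20000 or more. These differences were 0.36, 0.32 and 0.11 on the log2 scale. The level rose with depth, and the bands hold different parts of each library. The lowest band held 612 control and 1254 knockdown cells and the highest 2219 and 1461. The part of depth in these differences was not tested.

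Small differences beyond counting error were more often lower than higher in the knockdown library among the mitotic genes. Ranges of the log2 ratio, taken from the pair of intervals, lay wholly below 0 for 10 mitotic genes, wholly above 0 for 4 and on both sides of 0 for 11. Over the 12371 genes, 10.2% of ranges lay wholly below 0 and 24.2% wholly above, so the mitotic genes had a larger share below and a smaller share above than all genes. A range clears 0 more readily with more UMIs, and the genes were not matched for UMIs. Of the 50 further mitotic genes described below, 1 had a range wholly below 0 and 4 wholly above. Aurka, the kinase of the spindle poles, was at 39.1 CPM (37.9 to 40.3) in control against 32.8 CPM (31.6 to 34.02) in knockdown tumour-like cells, a log2 ratio of -0.25 (-0.35 to -0.16). That was the lowest of the 40. Pimreg (-0.19), the cyclin B2 gene Ccnb2 (-0.16) and the kinase gene Pbk (-0.15) came next among the mitotic genes. Tpx2, which activates Aurka on the spindle, was at 120 and 111 CPM, a log2 ratio of -0.12 (-0.17 to -0.06).

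The 4 mitotic genes with ranges above 0 were Mki67, Top2a, Cdk1 and Birc5. Mki67 was at 53.4 CPM in control against 58.2 CPM (56.6 to 59.8) in knockdown tumour-like cells, a log2 ratio of 0.12 (0.05 to 0.20). Top2a, the topoisomerase that untangles sister chromosomes, was at 252 CPM (249 to 255) and 272 CPM (268 to 275). Cdk1, the mitotic kinase itself, was at 154 and 162 CPM, a log2 ratio of 0.07 (0.02 to 0.12). These values are smaller than 1.5-fold, and their spread between tumours is unknown.

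The 8 replication genes had close levels in the libraries in tumour-like cells. Their log2 ratios ran from -0.06 for Mcm3, a subunit of the replicative helicase, to 0.02 for the thymidylate synthase gene Tyms, and all 8 ranges spanned 0, as did those of 8106 of the 12371 genes. Rrm2, a subunit of the enzyme that makes deoxynucleotides, was at 117 CPM in the control against 115 CPM in the knockdown library. Of the G1 regulators, Ccnd1, which encodes cyclin D1, was at 396 CPM (392 to 399.9) in control against 353 CPM (349 to 357) in knockdown tumour-like cells, a log2 ratio of -0.17 (-0.20 to -0.13). Its partner Cdk4 was at 429 and 428 CPM. Cdkn2a, the locus of the inhibitor p16 and of p19Arf, was at 16.3 CPM (15.5 to 17.1) and 18.2 CPM (17.3 to 19.1), a log2 ratio of 0.16 (0.02 to 0.30), and Cdkn1a was at 71.0 and 74.4 CPM.

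**Figure D2:**
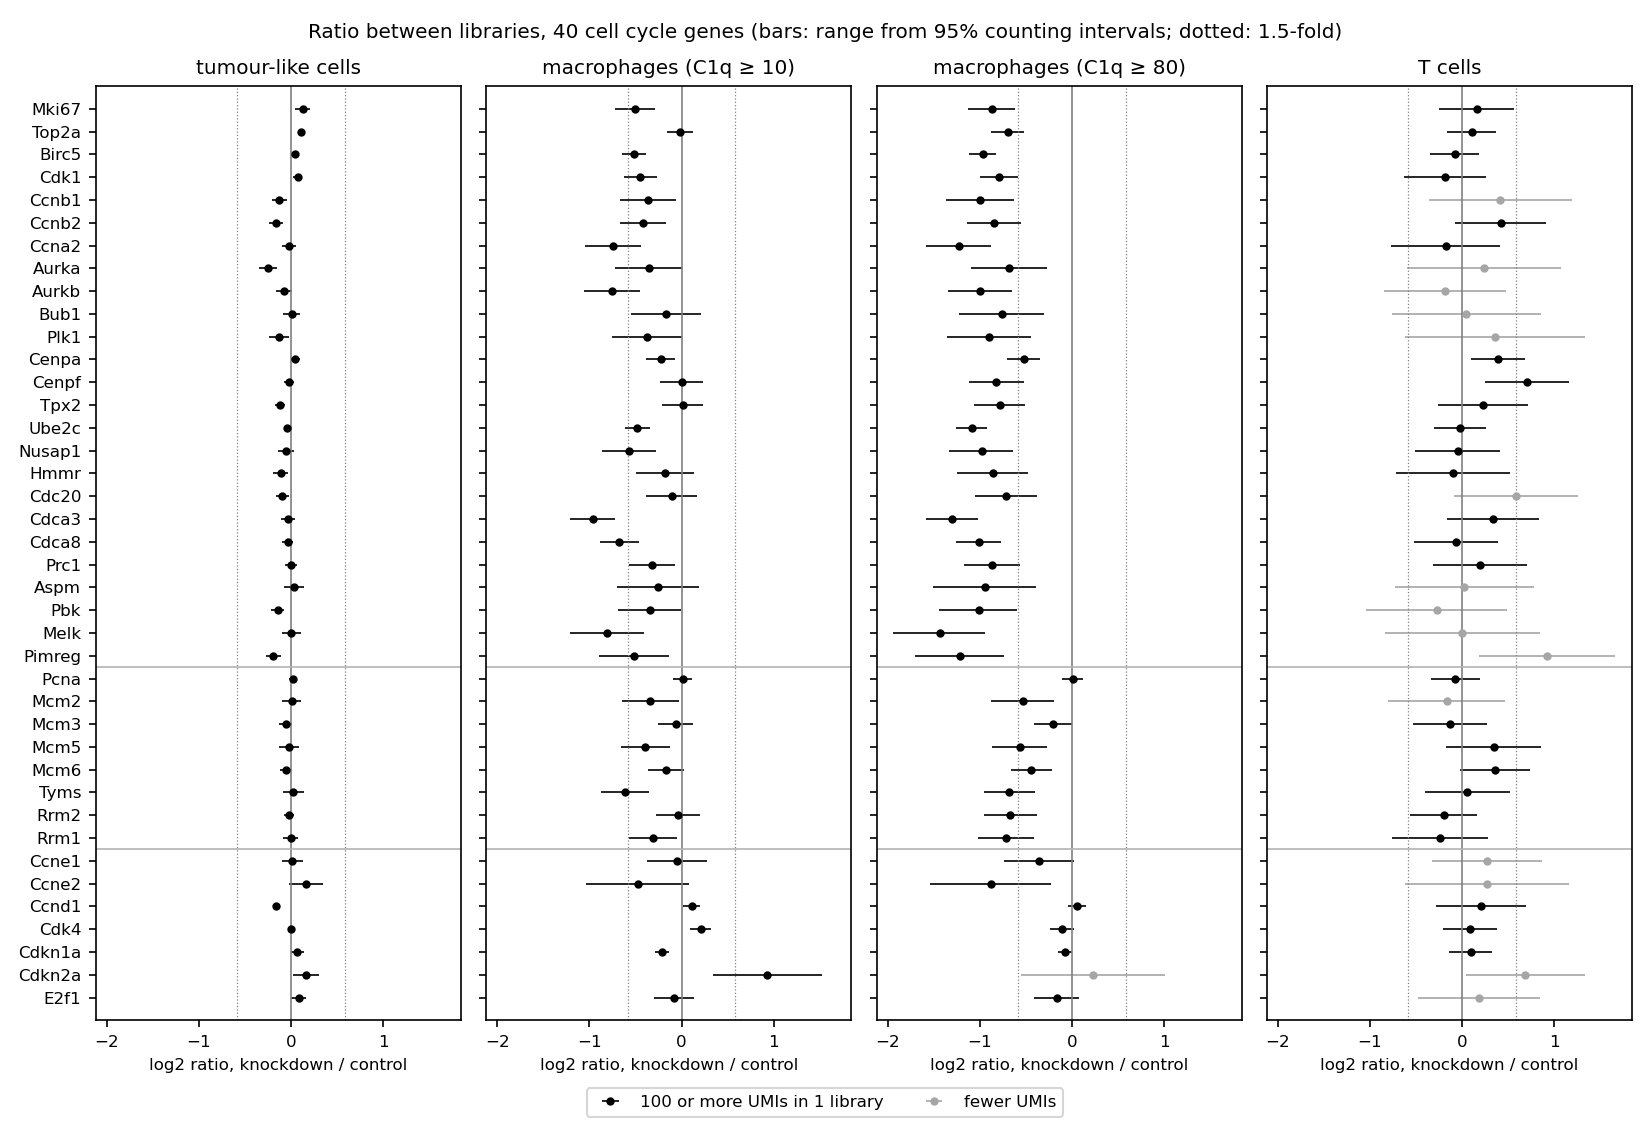
Log2 ratio of knockdown over control for each gene in the same 4 sets of cells, with bars for the range given by both 95% intervals and dotted lines at 1.5-fold; grey points had under 100 UMIs in both libraries. All points lie inside the dotted lines in tumour-like cells, and 24 of 25 mitotic genes lie below the lower line in C1q-high macrophages.

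In macrophages the mitotic genes were lower in the knockdown library, and by how much, and for how many genes, depended on which cells counted as macrophages and how they were weighted. By the rule (C1q of 10 or more), 6 of 40 genes were lower by 1.5-fold or more, where the background over 10256 genes was 0.936%, and 1 was higher, where it was 6.76%. The median log2 ratio was -0.37 for the mitotic genes and -0.24 for the replication genes, against 0.06 for all genes. With every cell weighted equally 1 gene was lower and 2 were higher, with medians of -0.10 and -0.04, where the background was 1.16% lower and 5.11% higher. With all barcodes 1 was lower and 1 higher, with medians of -0.26 and -0.11 and a background of 0.919% and 6.41%. Of 40 genes, these counts are near or below the background. In C1q-high macrophages, 28 of the 39 members with 100 UMIs or more in 1 library were lower by 1.5-fold or more (background 1.69% of 9690 genes) and 0 were higher (background 1.86%). There the medians were -0.90 for the mitotic genes and -0.55 for the replication genes, against 0.00 for all genes. The member left out by the count minimum was Cdkn2a. With at least 160 C1q UMIs per 10000, 27 members were lower (background 1.57%) and 0 higher (background 1.33%).

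The summed level of the 25 mitotic genes was 949 CPM in control against 510 CPM in knockdown C1q-high macrophages. All 25 were lower in the knockdown library with ranges wholly below 0, where 11.6% of all genes had ranges below 0 and 12.2% above, and 24 passed 1.5-fold. The exception was Cenpa, the histone of the centromere, at 73.3 and 51.1 CPM, a log2 ratio of -0.52 (-0.70 to -0.34). In macrophages by rule the sums were 938 and 718 CPM, 16 of 25 ranges lay below 0 and 0 above (9.95% and 22% of all genes), and Cdca3, Melk, Aurkb, Ccna2 and Cdca8 passed 1.5-fold.

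Genes that drive the entry into and the exit from mitosis were among them. Ccna2, the cyclin of S and G2, was at 25.9 CPM (521 UMIs) in control against 11.1 CPM (156 UMIs) in knockdown C1q-high macrophages, a log2 ratio of -1.23 (-1.58 to -0.87). Ccnb1 and Ccnb2, the cyclins that partner Cdk1 in mitosis, had log2 ratios of -0.99 and -0.85, and Cdk1 one of -0.79 (63.5 and 36.6 CPM). Cdca3, which helps to trigger the degradation of the mitotic inhibitor Wee1, was at 42.2 and 17.1 CPM, a log2 ratio of -1.30 (-1.59 to -1.02). By the rule's class Cdca3 was at 41.1 and 21.1 CPM, a log2 ratio of -0.96 (-1.21 to -0.72), the lowest of the 40 there.

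Ube2c and Cdc20 work with the anaphase-promoting complex, of which no subunit is among the 40 genes. Ube2c, the ubiquitin-conjugating enzyme that serves it, was at 109 CPM in control against 51.2 CPM in knockdown C1q-high macrophages, a log2 ratio of -1.09 (-1.26 to -0.92). Cdc20, its activator, was at 23.0 and 14.0 CPM, a log2 ratio of -0.72 (-1.06 to -0.38). By the rule's class Cdc20 had a log2 ratio of -0.11 (-0.39 to 0.17), which spans 0.

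The chromosomal passenger complex, which corrects the attachment of chromosomes to the spindle, has 3 subunits among the genes. Birc5, or survivin, was at 126 CPM in control against 64.1 CPM in knockdown C1q-high macrophages, a log2 ratio of -0.97 (-1.12 to -0.82). Its kinase Aurkb had a log2 ratio of -0.99 and its partner Cdca8 (borealin) one of -1.01. In macrophages by rule these were -0.52, -0.75 and -0.67, so all 3 were lower in both classes.

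Spindle genes were lower in C1q-high macrophages too. Prc1, which bundles the central spindle, was at 30.1 and 16.6 CPM, a log2 ratio of -0.86 (-1.17 to -0.56). Tpx2 had a log2 ratio of -0.78, Nusap1 one of -0.98, Hmmr one of -0.86 and Aspm, which organises the spindle poles, one of -0.94. The kinases Aurka, Bub1 and Plk1 had log2 ratios of -0.68, -0.76 and -0.90. Melk, a kinase of mitotic cells, had the lowest log2 ratio of all members, -1.43 (-1.94 to -0.94), on 297 control and 77 knockdown UMIs. Pimreg and the kinase gene Pbk had log2 ratios of -1.21 and -1.01. Mki67 was at 43.7 and 23.9 CPM, a log2 ratio of -0.87 (-1.13 to -0.62), Top2a had one of -0.70 and Cenpf one of -0.82. By the rule's class the log2 ratios of Top2a, Cenpf and Tpx2 were -0.02, 0.00 and 0.01, so for these 3 the difference between the libraries appears in the narrower class and not in the class as the rule draws it.

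Of the replication genes in C1q-high macrophages, 7 of 8 had ranges wholly below 0 (11.6% of all genes). Rrm1, Rrm2 and Tyms, which serve the making of deoxynucleotides, had log2 ratios of -0.71, -0.67 and -0.68, and these 3 passed 1.5-fold. The helicase subunits Mcm2, Mcm3, Mcm5 and Mcm6 had log2 ratios of -0.53, -0.21, -0.56 and -0.44, of which those of Mcm5 and Mcm2 lay just short of 1.5-fold. Pcna was at 156 CPM (150.3 to 161) in control against 157 CPM (150 to 163) in knockdown C1q-high macrophages, a log2 ratio of 0.01 (-0.10 to 0.12). It was the only replication gene with a range that spans 0.

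Of the G1 regulators in C1q-high macrophages, only Ccne2, a cyclin E gene, passed 1.5-fold, with a log2 ratio of -0.87 (-1.54 to -0.23) on 136 and 52 UMIs. Ccnd1 was at 201 and 209 CPM, Cdk4 at 118 and 110 CPM and Cdkn1a at 314 and 298 CPM, and the 3 ranges span 0. E2f1, an activator of the replication genes, had a log2 ratio of -0.16 (-0.41 to 0.08), and Ccne1, the other cyclin E gene, one of -0.36 (-0.74 to 0.02). Cdkn2a was the 1 member that was higher by 1.5-fold or more in macrophages by rule, with 78 control and 119 knockdown UMIs, a log2 ratio of 0.93 (0.34 to 1.53). In C1q-high macrophages it had 62 and 51 UMIs and a log2 ratio of 0.23 (-0.55 to 1.01).

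The direction of the mitotic difference turned with the C1q level of the cells that the macrophage rule took in. Among cells of that class with at least 2000 UMIs and 20 to under 40 C1q UMIs per 10000, the summed mitotic level was 905 CPM (788 to 1035) in 37 control cells and 1895 CPM (1812 to 1981) in 226 knockdown cells. At 10 to under 20 it was 761 and 2165 CPM (54 and 145 cells), and at 40 to under 80 it was 710 and 1287 CPM (121 and 230 cells). From 80 upward the order was reversed, with 1388 and 702 CPM at 80 to under 160 (502 and 340 cells) and 868 and 479 CPM at 160 or more (2567 and 2260 cells). The gauge of tumour-like RNA moved with the knockdown library in the low bands: it was 327 and 1032 CPM at 10 to under 20, 293 and 911 at 20 to under 40, 162 and 651 at 40 to under 80, 68.9 and 161 at 80 to under 160, and 51.3 and 59.7 at 160 or more. In tumour-like cells it was 1109 and 1118 CPM, so the knockdown cells of the 2 lowest bands were near the tumour-like level. Fibroblast markers summed to 1381 and 2826 CPM, 3494 and 2749 CPM, 604 and 1991 CPM, 128 and 481 CPM, and 95.04 and 133 CPM in the same bands, against 2589 and 2901 CPM in tumour-like cells. The bands were set after the data were seen, and the part of tumour-like RNA in the mitotic levels was not tested. With Scrublet's own doublet threshold, which marked 1089 control and 2808 knockdown cells, 20 members were lower by 1.5-fold or more in macrophages by rule, where the background was 1.28%, and 0 were higher (background 3.12%), with a mitotic median of -0.70.

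**Figure D3:**
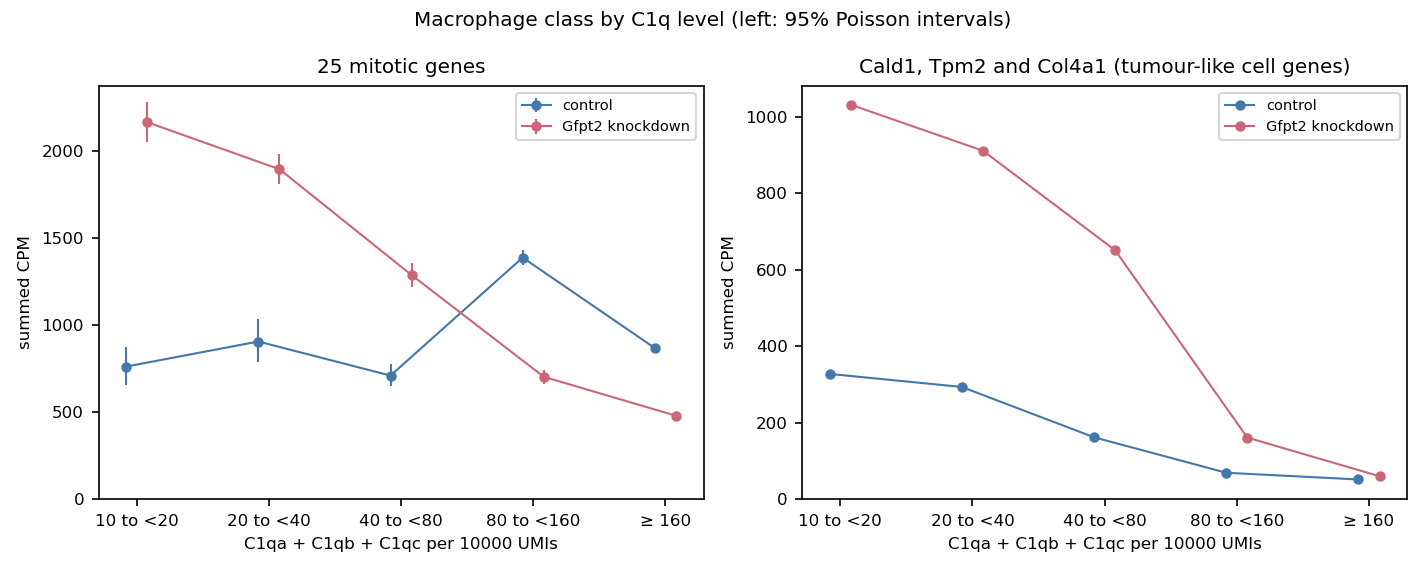
Summed CPM of the 25 mitotic genes (left, with 95% Poisson intervals) and of Cald1, Tpm2 and Col4a1 (right) in 5 bands of C1q UMIs per 10000, in macrophages with at least 2000 UMIs. The knockdown line lies above the control line in the 3 bands below 80 and below it in the 2 bands from 80 upward in the left panel, while it lies above in all 5 bands of the right panel.

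The lower mitotic level was found on both sides of 2 divisions of the C1q-high macrophages with at least 2000 UMIs. In cells with a UMI of the mannose receptor gene Mrc1 it was 994 CPM in the control against 535 CPM in the knockdown library, and in cells without one 851 and 462 CPM. In cells with 0 UMIs of Hmga2, Tnfrsf12a and Igf2bp2 it was 919 and 483 CPM. In cells with 1 or 2 of those UMIs it was 1060 and 608 CPM.

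In T cells few single cell cycle genes differed beyond counting error, while the summed level of the mitotic genes was 1630 CPM (4047 UMIs) for control and 1784.5 CPM (3754 UMIs) for knockdown. Of the 40 genes, 25 had 100 UMIs or more in 1 library. Of these 25, 0 were lower by 1.5-fold or more (background 0.801% of 4247 genes) and 1 was higher (background 1.41%). The median log2 ratio was 0.10 for the mitotic genes and -0.07 for the replication genes, against 0.03 for all genes. The gene that passed was Cenpf, a kinetochore protein, at 55.2 CPM (46.3 to 65.2) in control against 89.8 CPM (77.5 to 104) in knockdown T cells, a log2 ratio of 0.70 (0.25 to 1.16).

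Cenpa was at 146 CPM (132 to 162) in control against 192 CPM (174 to 212) in knockdown T cells, a log2 ratio of 0.39 (0.10 to 0.69). Those 2 genes were the only ones of the 25 with ranges wholly above 0, and 0 ranges lay wholly below, against 5.51% and 3.91% of all genes, so the counts are near the background. The other 23 ranges span 0, as 3847 of the 4247 did, among them those of Mki67 (82.2 and 91.7 CPM), Top2a (201 and 216 CPM), Birc5 (205 and 193 CPM) and Rrm2 (118 and 103 CPM). Pimreg, with 50 and 80 UMIs, and Cdkn2a, with 70 and 95 UMIs, were below the count minimum, at log2 ratios of 0.92 and 0.68. The next summed mitotic levels are for T cells with at least 2000 UMIs. In those with a UMI of Cd8a or Cd8b1 and none of Cd4 it was 1949 CPM (1880 to 2019) for control and 1987 CPM (1913 to 2063) for knockdown. With under 10 C1q UMIs per 10000 it was 1884 CPM (1821 to 1949) and 2349 CPM (2265 to 2435). With 10 or more, 58 and 75 cells, it was 1377 CPM (1260 to 1502) and 1187 CPM (1094 to 1286), with overlapping intervals. These intervals cover the counting of UMIs and not the spread between cells. The share of marked cells, defined below, was 30.3% (26.03 to 34.8) and 31.5% (26.5 to 36.8) under 10, a ratio of 1.04 (0.76 to 1.42). Markers of natural killer cells, 6 of 6 above 0 in both, summed to 932 and 476 CPM in the T cell class. Gzma alone, which T cells express too, was at 627 and 149 CPM, while Klrk1 was at 145 and 137 CPM and Klre1 at 118 and 143 CPM. Macrophage markers, 10 of 10 above 0, summed to 9898 and 11349 CPM. Their part in these values was not tested. Differences of the sizes seen in single genes of T cells were mostly not detectable at this depth.

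Other genes of the cell cycle were taken from lists that hold no member. Of 50 further mitotic genes, 43 had enough UMIs in C1q-high macrophages, and 27 of them were lower by 1.5-fold or more and 0 higher (background 1.69% and 1.86%), with a median log2 ratio of -0.69. The 5 lowest were the kinesin gene Kif2c (-1.21), Sapcd2 (-1.14), Shcbp1 (-1.11), the kinesin gene Kif20a (-0.98) and Depdc1a (-0.95). Of 36 further replication genes, 32 had enough UMIs and 3 were lower, Pclaf (-0.77), the thymidine kinase gene Tk1 (-0.70) and Rad51ap1 (-0.70), with a median of -0.36. Of 26 genes listed as further G1 regulators, 23 had enough UMIs and 3 were lower, with a median of -0.17. These were Foxm1 (-0.88) and Mybl2 (-0.66), the factors named above for the mitotic genes, and Fbxo5 (-0.75), an inhibitor of the anaphase-promoting complex, so none of the 3 is known chiefly for G1. The 6 genes from the replication and G1 lists are named after their values were seen because they are few. Of 14 p53 target genes, the 10 with enough UMIs had a median of 0.01 and none passed 1.5-fold. In tumour-like cells none of the genes of these 4 lists passed 1.5-fold (background 0.728% lower and 2.33% higher). There the 50 mitotic genes had a median of 0.02, with 1 range below 0 and 4 above, both smaller shares than the 10.2% and 24.2% of all genes.

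In macrophages by rule 4 of these mitotic genes were lower by 1.5-fold or more, Sapcd2 (-0.77), the kinesin gene Kif22 (-0.70), the kinetochore gene Spc24 (-0.64) and Kif2c (-0.62), out of 45 with enough UMIs, where the background was 0.936%, and none was higher. Higher there were 3 genes of the other lists, the inhibitor gene Cdkn2b (1.10) and the p53 targets Phlda3 (0.82) and Zmat3 (0.72), out of 33, 24 and 11 with enough UMIs in the replication, G1 and p53 lists. By list these were 0, 1 and 2 genes, against a background of 6.76% higher, so the p53 list lay above it on 2 genes and the other lists below it. In T cells the replication gene Dtl was higher (0.65) and the G1 gene E2f4 lower (-0.62), out of 17 replication and 11 G1 genes with enough UMIs, where the background was 1.41% higher and 0.801% lower. Only 10 of the 50 mitotic genes had enough UMIs there, and that none of them passed says little of the list.

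To separate the number of cycling cells from the level within them, cells were thinned to 2000 UMIs each and marked when they held at least 3 UMIs of the 50 further mitotic genes. The members took no part in the marking. Marked cells made up 33.9% (32.6 to 35.2) of control and 35.8% (34.5 to 37.1) of knockdown tumour-like cells, a ratio of 1.06 (0.98 to 1.14). They made up 14.0% (12.8 to 15.2) and 16.3% (15.04 to 17.6) of macrophages by rule, a ratio of 1.17 (0.99 to 1.38), and with at least 2 UMIs as the threshold the ratio was 1.14 (1.02 to 1.29). In C1q-high macrophages they made up 14.1% (12.9 to 15.4) and 9.73% (8.62 to 10.9), a ratio of 0.69 (0.56 to 0.85). In T cells they made up 29.6% (25.6 to 33.8) and 30.8% (26.4 to 35.6), a ratio of 1.04 (0.78 to 1.39). The share was therefore lower in the knockdown library beyond counting error in C1q-high macrophages alone of these 4 sets.

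These shares leave out shallow cells and depend on a threshold. Cells under 2000 UMIs were 181 control and 452 knockdown C1q-high macrophages, 584 and 962 macrophages by rule, 231 and 231 T cells and 0 tumour-like cells. Without thinning the shares were 85.6% and 81.1% in tumour-like cells, 33.6% and 30.7% in macrophages by rule, 36.4% and 25.6% in C1q-high macrophages and 34.1% and 33.2% in T cells. In C1q-high macrophages 330 control and 282 knockdown cells lay 1 UMI short of the threshold, and 110 and 94 lay exactly on it. Marking is a range of a count, not a type of cell.

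**Figure D4:**
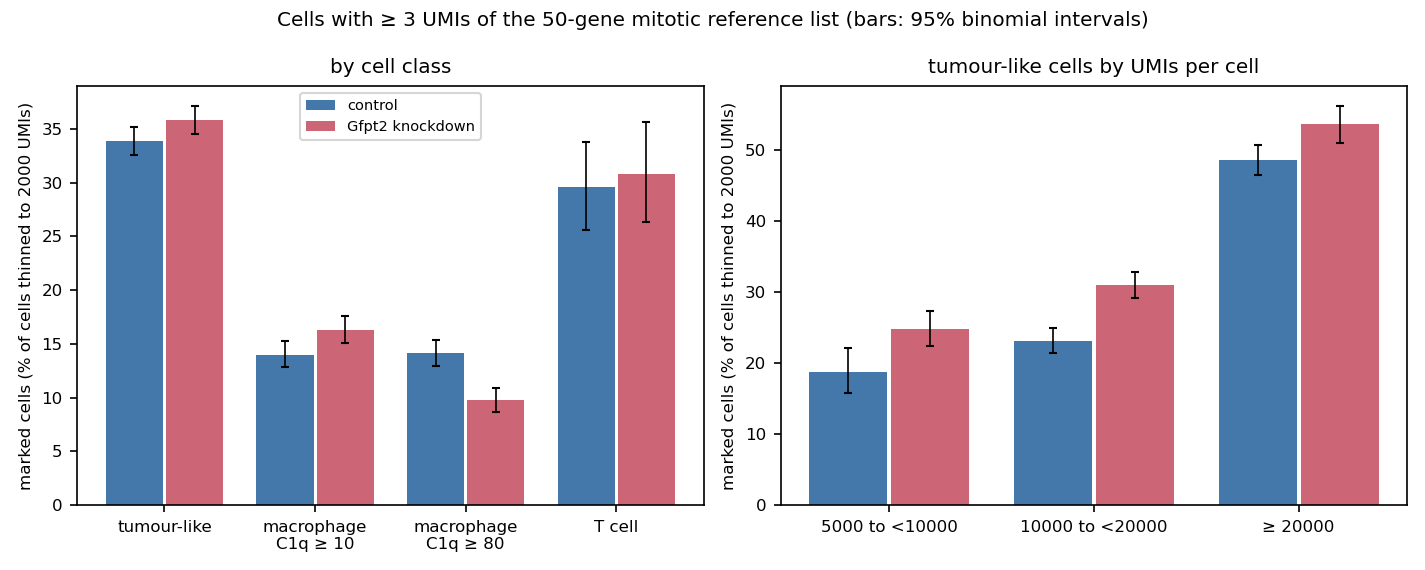
Share of cells, thinned to 2000 UMIs, with at least 3 UMIs of 50 further mitotic genes, by class (left) and in tumour-like cells by UMIs per cell before thinning (right), with bars for 95% binomial intervals. The red and blue intervals are apart in C1q-high macrophages, where the knockdown bar is lower, and in each of the 3 depth bands of tumour-like cells, where it is higher.

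Within tumour-like cells the share was higher in cells with more UMIs, and within each of 3 bands of UMIs per cell it was higher in the knockdown library. At 5000 to under 10000 UMIs, marked cells made up 18.8% (15.8 to 22.1) of 612 control and 24.8% (22.4 to 27.3) of 1254 knockdown cells, a ratio of 1.32 (1.01 to 1.73). At 10000 to under 20000 UMIs they made up 23.1% and 31.0% of 2155 and 2496 cells, a ratio of 1.34 (1.17 to 1.54). At 20000 UMIs or more they made up 48.5% and 53.6% of 2219 and 1461 cells, a ratio of 1.10 (1.01 to 1.21). The bands were not equal in depth, with median UMIs of 7971.5 and 7725, 14966 and 14312, and 27113 and 26242. Over all tumour-like cells, thinned alike, the ratio was 1.06 (0.98 to 1.14), and the bands hold different parts of each library. Tumour-like cells with fewer than 20 fibroblast marker UMIs per 10000 held more marked cells, 45.7% and 50.4%, than those with 20 or more, 20.4% and 22.7%.

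Cells marked by the further mitotic genes differed from unmarked cells most in the mitotic members, an order that outside T cells turned with the marking list. In tumour-like cells the median ratio of marked over unmarked CPM was 8.12 in the control against 8.33 in the knockdown library for mitotic genes, 1.93 and 2.04 for replication genes and 1.20 and 1.38 for G1 regulators. In C1q-high macrophages it was 13.5 and 10.8, 2.23 and 3.01, and 1.39 and 1.52, over genes with 100 UMIs or more in that library. By the rule it was 13.2 and 9.55, 2.22 and 2.71, and 1.37 and 1.81. In T cells it was 12.8 and 17.4, 2.73 and 2.60, and 1.24 and 1.17. With the cells marked by the 36 further replication genes in place of the mitotic ones, the order of the first 2 roles was the opposite outside T cells. The medians for mitotic, replication and G1 genes were then 2.09, 3.66 and 1.69 in control tumour-like cells and 3.48, 4.67 and 2.16 in control C1q-high macrophages. In knockdown cells of these 2 classes they were 2.47, 3.56 and 1.73, and 4.26, 4.98 and 1.64. In T cells they were 7.29, 5.30 and 1.35 for control and 4.94, 4.80 and 1.23 for knockdown. G1 regulators had the lowest median under both markings.

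**Figure D5:**
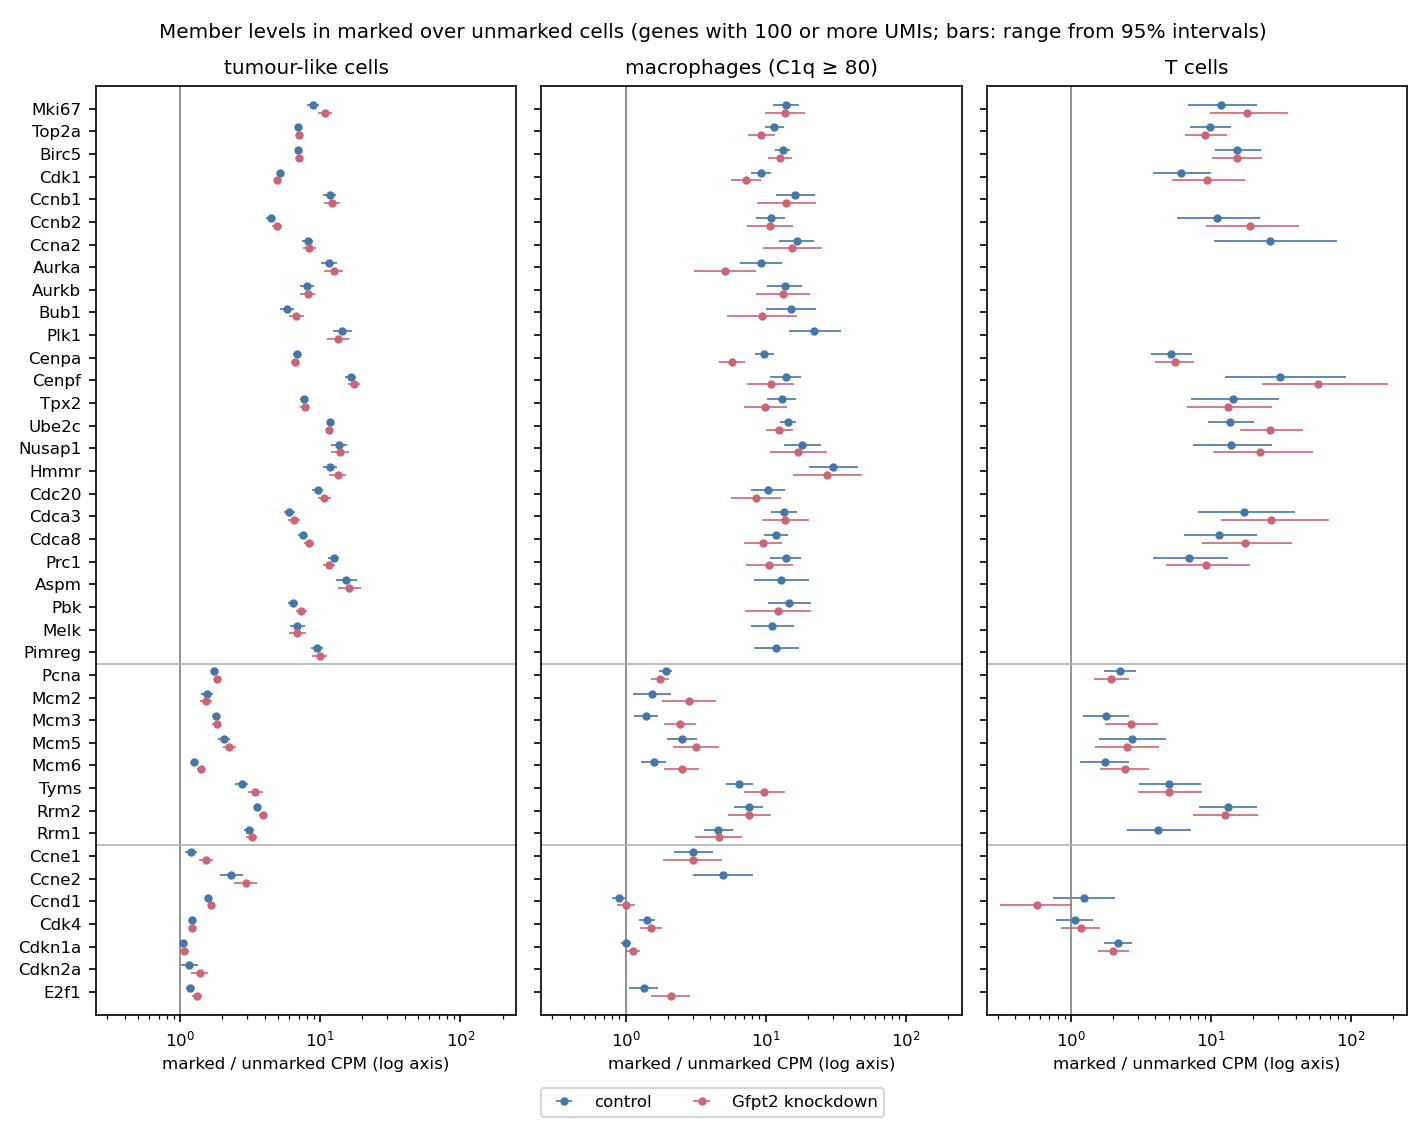
Ratio of the CPM in marked cells to that in unmarked cells (log axis) for each member with at least 100 UMIs, in tumour-like cells, C1q-high macrophages and T cells, with bars for the range from the pair of 95% intervals. In tumour-like cells the mitotic genes, at 4.44 or more, lie to the right of the replication genes, at 3.90 or less, while in T cells Rrm2 lies among the mitotic genes.

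Single genes departed from their group. Cenpf had the largest ratio in tumour-like cells, 16.5 (15.1 to 17.9) in the control library against 17.4 (15.8 to 19.2) in the knockdown library. In C1q-high macrophages Hmmr had the largest, 30.1 (20.3 to 45.5) and 27.3 (15.7 to 48.9). Among replication genes Rrm2 had ratios of 3.53 and 3.90 in tumour-like cells but 13.1 (8.23 to 21.4) and 12.5 (7.43 to 21.7) in T cells, in the range of the mitotic genes. Cdkn1a was at the same level in marked and unmarked tumour-like cells, with ratios of 1.05 (0.98 to 1.12) and 1.07 (1.00 to 1.15), while in T cells it was higher in marked cells, at 2.16 (1.71 to 2.74) and 2.00 (1.56 to 2.57). Ccnd1 had ratios of 1.57 and 1.66 in tumour-like cells and 0.89 and 1.01 in C1q-high macrophages.

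In C1q-high macrophages both the share of marked cells and the level within them were lower in the knockdown library. The 433 marked control cells had a summed mitotic level of 3874 CPM and the 253 marked knockdown cells one of 2535 CPM, and unmarked cells had 304 and 243 CPM. The marked sets also differed in make-up, since 110 of the 433 control and 94 of the 253 knockdown cells lay exactly on the threshold, and 62 and 26 held 10 or more UMIs of the marking list; the part of this in the levels was not tested. Marked cells held 73.9% of the mitotic UMIs in the control library against 57.7% in the knockdown library. By the rule, marked macrophages had 3827 and 2752 CPM and unmarked ones 306 and 310 CPM. In the C1q-high class Ube2c was at 458 CPM in marked control and 275 CPM in marked knockdown cells, Cdca3 at 176 and 96.3 CPM, and Mki67 at 182 and 131 CPM. Pcna was at 258 and 253 CPM in the same cells. In marked tumour-like cells the summed mitotic level was 4797 and 4690 CPM, and in marked T cells 4314 and 5141 CPM.

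Marked C1q-high macrophages carried the C1q and Xist RNA of their class, and in the knockdown library lymphocyte genes as well. Xist was at 748 CPM in marked control and 737 CPM in marked knockdown cells, above the 464 and 462 CPM of unmarked cells, and C1qa was at 8535 and 9232 CPM, below the 10303 and 10812 CPM of unmarked cells. Gzmb, a granzyme of cytotoxic lymphocytes, was at 2.22 CPM (0.957 to 4.37) in marked control and 101 CPM (85.6 to 118) in marked knockdown cells, against 3.69 and 18.7 CPM in unmarked cells. Cd8a was at 3.32 and 15.4 CPM in marked cells. The 9 T cell markers summed to 21.8 CPM in all control and 52.5 CPM in all knockdown C1q-high macrophages, against 4384 and 4721 CPM in T cells. What part T cell RNA had in the marked knockdown macrophages was not tested.

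Cells marked by the mitotic list and by the 36 further replication genes overlapped in part. In tumour-like cells 24.6% of control and 27.5% of knockdown cells passed both thresholds, 20.2% and 19.6% the replication threshold alone and 9.27% and 8.31% the mitotic threshold alone. In C1q-high macrophages 7.72% (6.80 to 8.72) of control and 5.19% (4.37 to 6.12) of knockdown cells passed both. There 12.4% and 11.04% passed the replication threshold alone and 6.39% and 4.54% the mitotic threshold alone. The intervals for the replication threshold alone overlap. All cells past the replication threshold, with or without the mitotic one, made up 20.1% (18.7 to 21.6) and 16.2% (14.8 to 17.7) of C1q-high macrophages, a ratio of 0.81 (0.69 to 0.95). In macrophages by rule 7.62% and 9.47% passed both, 12.4% and 13.2% the replication threshold alone and 6.37% and 6.84% the mitotic threshold alone, so the order of the libraries there was the opposite.

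The share of thinned cells with any UMI of a member gave the same directions in C1q-high macrophages. It was lower in the knockdown library for 25 of 25 mitotic genes, for 18 of them with intervals that do not overlap (3.8% of all genes, with 4.08% higher), and for 7 of 8 replication genes, for 3 of them without overlap. In macrophages by rule it was lower for 14 mitotic genes and higher for 11, with intervals that do not overlap for 2 and 1 of them (4.12% and 10.4% of all genes). Ube2c was found in 10.3% of control and 6.42% of knockdown C1q-high macrophages, against 10.4% and 10.5% by the rule, Cdca3 in 5.64% and 2.42%, and Pcna in 23.9% and 25.2%. No class lacks these genes, so the background of such shares is not known. The gauge of tumour-like RNA, 4.95% and 7.10% in these cells, is a ratio of summed CPM and not a share of cells. In tumour-like cells the share was lower for 11 mitotic genes and higher for 14, and the intervals of 1 of the 25 did not overlap, Cdk1 with 17.3% and 19.9% (5.59% of all genes were higher without overlap and 1.81% lower). In T cells it was lower for 4 and higher for 21, with overlapping intervals for all 25, as for most genes (1.32% higher and 0.612% lower without overlap). For directions alone no share over all genes is given, and directions of genes found in the same cells are not independent.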

How the data were processed

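The deposited matrices, 1 per library, hold UMI counts as whole numbers, a row for each gene and a column for each cell. The file headers name Cell Ranger 6.1.0, and the submitters' processing notes 3.1.0. Which genome build and annotation the authors used, and whether they filtered cells, is not given in the sources used here. Summed counts were 165824226 (control) and 138402860 (knockdown). Cells with under 200 genes or over 20% mitochondrial UMIs were left out, and doublets were removed as the cells with the highest Scrublet scores (scanpy 1.11.5), at 0.8% per 1000 cells (1148 control, 1322 knockdown). Both libraries together list 37 shared barcodes, which were kept as separate cells. CPM, Poisson and Clopper-Pearson intervals at 95%, log2 ratios and thinned shares were computed with Python 3.11.15, numpy 2.4.6, scipy 1.17.1 and pandas 2.3.3, with no test, and the steps were tested on simulated data. A member was counted past 1.5-fold only with 100 UMIs or more in 1 library. All 40 members are reported. From the further lists, up to 5 genes per class and direction with the largest log2 ratio past that fold are named. The members, lists and class rules were chosen with earlier results of these data known, and the C1q minimums of 80 and 160 were added after the data were seen. Promoter windows came from RefSeq (GRCm38.p6). PCR copies are removed by the UMIs, and intervals cover counting error only. Alternatives covered doublets, cell filters, scaling, weighting of cells, count minimums, class rules, thinning and the marking threshold.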

Additional observations from a re-analysis of the deposited data

Results flagged for a closer look

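Some members had ranges beyond 0 in opposite directions in 2 of the cell classes as the rules draw them. Mki67 had a log2 ratio of -0.50 in macrophages and 0.12 in tumour-like cells. Birc5 had one of -0.52 in macrophages and 0.044 in tumour-like cells, and Cdk1 one of -0.45 and 0.071. Cenpa had a log2 ratio of -0.23 in macrophages and 0.39 in T cells. Ccnd1 ran the other way, with -0.17 in tumour-like cells and 0.11 in macrophages. With 1 library per group the difference between the classes was not tested. In C1q-high macrophages the ratios of Mki67, Birc5, Cdk1 and Cenpa were further below 0, at -0.87, -0.97, -0.79 and -0.52, while that of Ccnd1 was 0.06 with a range that spans 0.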

How the results depend on the processing

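Every value rests on 1 library per group, so no library could be left out, and the spread between tumours is unknown. No paired analysis was possible because each group has 1 library and no result comes from a test. In tumour-like cells no member passed 1.5-fold under any of 10 alternatives. The mitotic median (-0.04) ran from -0.08 with CPM shifted by the median of all genes to 0.01 without cells with Krt16 or Klk8, and the replication median (-0.01) from -0.05 with shifted CPM to 0.03 with stricter class limits, so their signs are not settled. The ratio of marked cells (1.06) was 0.948 without thinning and 0.990 with Scrublet's own doublet threshold, below 1 in both. In macrophages the number of members past 1.5-fold (7, of which 6 lower and 1 higher) was 3 with every cell weighted equally (1 lower, 2 higher) and 2 with all barcodes (1 lower, 1 higher). It was 20 with Scrublet's own threshold, 17 with stricter class limits, 28 with C1q of 80 or more and 27 with C1q of 160 or more, all lower (background 1.28%, 1.16%, 1.69% and 1.57% lower). The mitotic median (-0.37) was -0.70 with Scrublet's own threshold and -0.90 with either C1q minimum, and the replication median (-0.24) was -0.55 at 80 and -0.51 at 160. Both were nearer 0 with every cell weighted equally (-0.10 and -0.04) and with all barcodes (-0.26 and -0.11, with ranges that span 0). The ratio of marked macrophages (1.17) was 0.873 with Scrublet's own threshold, 0.850 with stricter class limits, 0.913 without thinning, 0.690 at C1q of 80 and 0.713 at 160, but 1.30 (1.12 to 1.52) with all barcodes and 1.14 (1.02 to 1.29) with at least 2 UMIs as the threshold, so its direction depended on these choices. In T cells the number past 1.5-fold (1) was 2 with equal weights (background 2.21% higher). It was 3 both with a minimum of 20 UMIs (background 5.89% higher) and with no minimum (14% higher). All of these were higher in the knockdown library. The cause of these moves was not tested. Scrublet's own threshold marked 1089 control and 2808 knockdown cells as doublets. The low depth of T cells left 15 of 40 members under the count minimum.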

Other observations

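Cells that met none of the 3 class rules numbered 1201 in the control library (11.3% of kept cells) and 1578 in the knockdown library (13.8%). Their summed level of the 25 mitotic genes was 2423 CPM (2395 to 2452) for control and 2036 CPM (2011 to 2062) for knockdown, against 2343 and 2319 CPM in tumour-like cells. In tumour-like cells with a UMI of the keratin gene Krt16 or the kallikrein gene Klk8, 585 in the control against 256 in the knockdown library, marked cells made up 39.8% and 38.7%, and the summed mitotic level was 2775 and 2287 CPM. In tumour-like cells without either it was 2275 and 2321 CPM.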
